A study of Homo sapiens with 6 samples.

Results

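A set of 9 genes of leukocyte adhesion was followed in THP-1 cells with and without PMA: the immunoglobulin-superfamily molecules ICAM1, ICAM3, VCAM1, PECAM1, ALCAM, CD58 and CD47, the hyaluronan receptor CD44 and the selectin ligand SELPLG. They were chosen by name, with earlier results of these data known, as surface molecules that hold leukocytes to other cells or to matrix. All 9 were measured, among 18417 genes tested. A gene was read from the probe sets that carry its symbol alone, and from the brightest of these by its mean over the 6 arrays. THP-1 is a line grown from a monocytic leukaemia, and PMA (phorbol myristate acetate) switches on protein kinase C and drives the cells towards a macrophage-like state. The PMA group was 3 arrays of THP-1 cells exposed to 200 nM PMA for 3 days, with 3 further days of rest in PMA-free medium. The unstimulated group was 3 arrays of the same line without PMA. The labels do not say that replicates were separate cultures, so the p-values here rest on the spread among 3 arrays per group, part or all of which may be technical.

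Leukocytes leave the blood in steps. Selectins on one cell first catch sialylated and fucosylated mucins such as PSGL-1, the product of SELPLG, which gives rolling. Integrins of the leukocyte then bind immunoglobulin-superfamily counter-receptors such as the ICAMs and VCAM-1, which gives firm arrest, and PECAM-1 takes part in passage between endothelial cells. Macrophages and their precursors carry several of these counter-receptors themselves, and use them in contact with T cells and with each other. CD44 binds the matrix sugar hyaluronan, and CD47 is the signal on a cell's surface that restrains phagocytosis through SIRP-alpha.

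The values are log2 array values, 1 per probe set and array. Array lower quartiles lay between 4.46 and 4.57 and upper quartiles between 8.04 and 8.11, and signal near a lower quartile cannot be told from background. Pairs of arrays correlated at 0.988 to 0.995 when both came from 1 group, and at 0.958 to 0.968 when they did not. Of 9 measured monocyte and macrophage markers, 8 lay above the upper quartile on every array, while none of 9 markers of T, natural killer and B cells did. In the monocyte and macrophage list 5 markers rose and 1 fell. Its summed level, as log2 of the sum of linear values, was 14.36 to 14.51 with PMA and 14.16 to 14.19 unstimulated. Of 8 fibroblast markers 2 rose and none fell, with a summed level of 9.01 to 9.82 with PMA and 8.49 to 8.54 unstimulated. Those that rose were PDGFRA (mean 8.30 with PMA and 5.15 unstimulated) and PDGFRB (6.37 and 5.85), and the rest did not pass. The summed level of the lymphoid list was 8.496 to 8.58 with PMA and 8.48 to 8.61 unstimulated.

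With PMA, 5 of the 9 genes rose, 1 fell and 3 did not pass an adjusted p of 0.05 (limma, Benjamini-Hochberg adjustment over all genes). ICAM1 rose most, followed by ALCAM, CD44, CD58 and CD47, and SELPLG fell. Over all genes tested 13.2% rose and 13.2% fell, 26.4% in all. The split over all genes depended on scaling: 50.1% of the called genes were higher as deposited and 61.8% with each array centred on its median. The median log2 fold change of the 9 genes was 0.90, against −0.03 over all genes. As the 9 genes were chosen with earlier results of these data known, their comparison with all genes is a description and not a test. Rises of at least 2-fold that passed were seen for 4 of the 9 (5.17% of all genes) and such falls for 1 (3.2% of all genes). The groups did not overlap for 8 of the 9, against 41.2% of all genes, with 6 higher (19.2% of all genes) and 2 lower (22% of all genes). As RNA was taken from whole cultures, fewer cells that express a gene and less RNA per cell cannot be told apart.

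**Figure D1:**
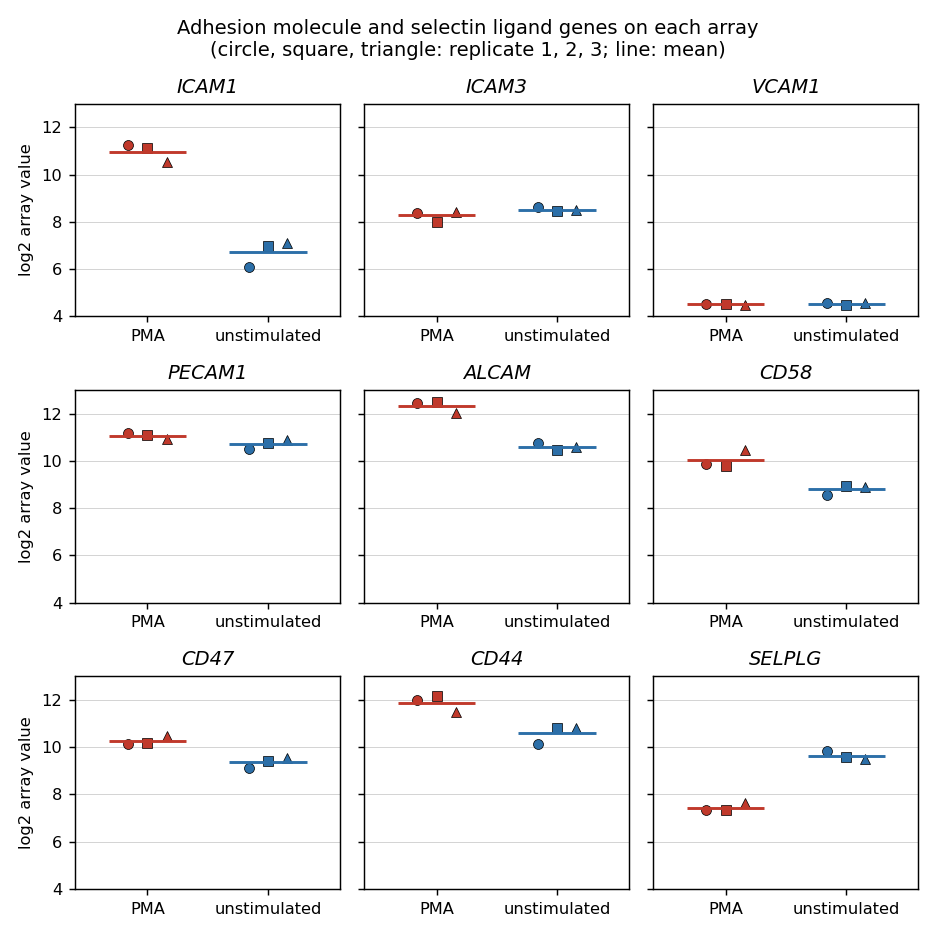
Log2 array value (vertical axis) of each of the 9 genes on the 3 PMA arrays (red, left) and the 3 unstimulated arrays (blue, right), with a line at each group's mean. ICAM1 lies at 10.54 or above with PMA and at 7.11 or below unstimulated, SELPLG moves the other way, and VCAM1 stays near 4.5 in both groups; heights cannot be compared between genes, which have different probes.

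Of the intercellular adhesion molecules, ICAM1 and ICAM5 rose and the other 3 measured did not pass. ICAM1 (chromosome 19, 10271120 to 10286615, GRCh38.p14) encodes the ligand of the leukocyte integrins LFA-1 and Mac-1. It was 11.24, 11.12 and 10.54 on the PMA arrays, against 6.11, 6.998 and 7.11 on the unstimulated arrays. Every PMA array stood more than 3 log2 units above every unstimulated array. The log2 fold change was 4.22 ± 0.29 (SE, n = 3 each), an 18.7-fold rise (95% interval on the log2 scale 3.56 to 4.89, limma adjusted p = 4.93e-05). Ranked by log2 fold change among all genes tested, it stood at percentile 99.8.

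ICAM3 (chromosome 19, 10333776 to 10339624) encodes a leukocyte ICAM that binds LFA-1 and DC-SIGN. It was 8.39, 7.99 and 8.44 with PMA, against 8.61, 8.46 and 8.49 unstimulated. The PMA arrays were all below the unstimulated ones, by a gap of less than 0.1 between the nearest. The log2 fold change of −0.25 ± 0.13 (SE, n = 3 each) did not pass in limma (adjusted p = 0.240, 95% interval −0.56 to 0.07). Among the other family members, ICAM5, first described in neurons, rose (0.78 ± 0.17, limma adjusted p = 0.0128), a call lost in a gene-wise test without shared variance and without unstimulated replicate 3. ICAM2, another LFA-1 ligand, and ICAM4, a red cell molecule, overlapped between groups, with log2 fold changes of 0.15 ± 0.14 (adjusted p = 0.530) and 0.12 ± 0.12 (adjusted p = 0.526).

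VCAM1 (chromosome 1, 100719742 to 100739045), the cytokine-induced endothelial ligand of the integrin VLA-4, was 4.50, 4.52 and 4.49 with PMA and 4.56, 4.50 and 4.56 unstimulated. All 6 values lay near the arrays' lower quartiles, so no level above background was seen in either group. The log2 fold change was −0.03 ± 0.08 (SE, n = 3 each, limma adjusted p = 0.827, 95% interval −0.22 to 0.16), and its sign turned under other scalings (0.02 to 0.05).

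The upstream sequences of ICAM1 and VCAM1 are shown because both genes are known targets of NF-kappaB in activated endothelium, while with PMA the first rose and the second stayed near background in both groups. They are the 250 bases before the RefSeq gene start on the plus strand of GRCh38.p14, at chr19:10270870-10271119 for ICAM1 and chr1:100719492-100719741 for VCAM1. Capitals mark matches on either strand to GGNNNTTCC, an NF-kappaB type motif.
ICAM1: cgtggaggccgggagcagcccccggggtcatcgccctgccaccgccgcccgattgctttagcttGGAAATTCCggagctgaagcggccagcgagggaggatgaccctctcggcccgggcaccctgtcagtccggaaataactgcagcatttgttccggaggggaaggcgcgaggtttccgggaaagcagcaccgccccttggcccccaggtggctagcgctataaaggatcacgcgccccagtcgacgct
VCAM1: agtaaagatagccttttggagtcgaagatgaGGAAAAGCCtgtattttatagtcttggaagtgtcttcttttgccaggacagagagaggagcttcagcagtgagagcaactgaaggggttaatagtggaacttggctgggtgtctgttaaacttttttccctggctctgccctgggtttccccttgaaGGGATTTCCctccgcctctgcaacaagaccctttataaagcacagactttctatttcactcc
The ICAM1 match meets the motif on both strands and lies at −186 to −178, counting the gene start as position 0. VCAM1 holds a match on the plus strand at −62 to −54 and another on the minus strand at −219 to −211. Of 35116 RefSeq windows of this length, 17.1% hold the motif and 6.57% hold TGANTCA, an AP-1 type motif. The 7 genes with a window had 9 windows, 3 of them of ICAM3. ICAM1, VCAM1 and CD58, with 1 window each, held the NF-kappaB type motif, and none of the 7 held the AP-1 type motif. Windows of SELPLG and PECAM1 were not used here. A match is a string of letters only, and the motif was present both in the gene that rose most and in the gene near background.

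PECAM1 (chromosome 17, 64319415 to 64390860), the homophilic molecule of endothelial junctions, platelets and leukocytes, was 11.18, 11.08 and 10.92 with PMA, against 10.52, 10.76 and 10.86 unstimulated. The lowest PMA array and the highest unstimulated array differed by less than 0.1. The difference of group means was 0.35 ± 0.12 on the log2 scale (SE, n = 3 each, limma adjusted p = 0.0738, 95% interval 0.07 to 0.63). The call depended on the processing: the adjusted p ran from 0.0393 to 0.226 over the alternatives, was 0.0393 with arrays centred on their medians, and was 0.0487 without PMA replicate 3. A dimmer probe set of the gene overlapped between groups (4.91, 5.73 and 4.53 with PMA, 4.599, 4.43 and 5.01 unstimulated).

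Endothelial markers beside PECAM1 were mixed. Of 10 measured, 2 rose, none fell and none lay above the upper quartile on every array. The defining genes CDH5, VWF and TEK had means of 5.52, 4.81 and 4.53 with PMA, against 5.27, 4.86 and 4.54 unstimulated. Those that rose were ROBO4, a receptor of vascular endothelium (2.36 ± 0.11, limma adjusted p = 8.72e-06), and TIE1, a receptor tyrosine kinase (1.18 ± 0.25, adjusted p = 0.0107), whose call was lost in a gene-wise test without shared variance. The summed level of the list was 9.77 to 10.10 with PMA and 9.18 to 9.39 unstimulated, and its part in the PECAM1 values was not tested.

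Among molecules of cell-to-cell contact, ALCAM, CD58 and CD47 rose. ALCAM (chromosome 3, 105366909 to 105576900) binds itself and CD6 on T cells. It was 12.45, 12.51 and 12.01 on the PMA arrays, against 10.74, 10.47 and 10.60 unstimulated, and the groups lay more than 1 log2 unit apart. Its log2 fold change was 1.72 ± 0.15 (SE, n = 3 each), a 3.29-fold rise (limma adjusted p = 0.000168).

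CD58 (chromosome 1, 116514534 to 116571026), the ligand of the T cell molecule CD2, was 9.87, 9.78 and 10.44 with PMA, against 8.56, 8.95 and 8.91 unstimulated. PMA replicate 3 was the highest array and unstimulated replicate 1 the lowest. Its mean rose by 1.22 ± 0.19 on the log2 scale (SE, n = 3 each), or 2.33-fold (limma adjusted p = 0.00264). Leaving out both of these arrays, chosen after the data were seen, gave 0.89 (limma adjusted p = 0.000102). Dropping the arrays farthest from their groups narrows the spread, with a standard error of 0.11 against 0.19. The lower p is therefore no added support. The adjusted p ran from 0.000102 to 0.0473 over the alternatives, with its low end from that setting.

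CD47 (chromosome 3, 108043091 to 108091031), the ligand of SIRP-alpha and of thrombospondin, was 10.14, 10.19 and 10.46 with PMA and 9.14, 9.39 and 9.55 unstimulated. The groups did not overlap. The rise of 0.90 ± 0.14 (SE, n = 3 each) was a 1.87-fold rise (limma adjusted p = 0.00234) and so fell short of 2-fold.

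Genes for binding partners of these molecules, read with related genes, moved both ways. The list for CD47, CD58, ALCAM and PECAM1 holds 9 genes, not all of them receptors. Of these 2 rose and 4 fell (13.2% and 13.2% of all genes tested), with a median log2 fold change of −0.24. THBS1, which encodes the secreted CD47 ligand thrombospondin-1, rose (3.51 ± 0.15, limma adjusted p = 6.03e-06), and so did SIRPA, which encodes the inhibitory CD47 receptor of myeloid cells (0.80 ± 0.11, adjusted p = 0.00130). SIRPB1, a relative of SIRPA that pairs with an activating adaptor and is not counted here as a CD47 receptor, fell (−2.60 ± 0.13, adjusted p = 1.06e-05). CD38, a NAD-consuming surface enzyme that binds PECAM-1, fell (−3.81 ± 0.58, adjusted p = 0.00234), a call lost in the gene-wise test. QPCTL, the enzyme that modifies the SIRP-alpha binding end of CD47, also fell (−0.57 ± 0.11, adjusted p = 0.00582). The T cell partners CD2 (mean 4.44 with PMA and 4.46 unstimulated) and CD6 (7.06 with PMA and 6.95 unstimulated) overlapped between groups.

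**Figure D2:**
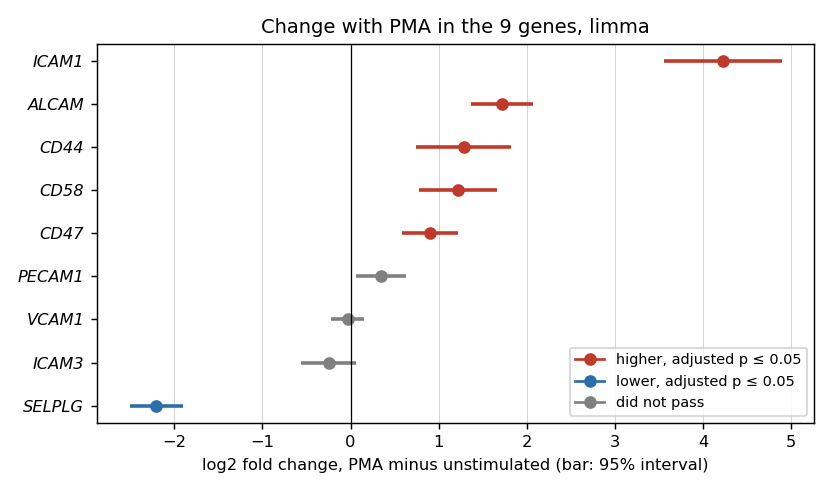
Log2 fold change, PMA minus unstimulated (horizontal axis), of the 9 genes, with 95% intervals from limma (n = 3 arrays per group). ICAM1 at 4.22 stands clear of the other rises, which run from 0.90 to 1.72, and SELPLG at −2.20 is the gene that fell.

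CD44 (chromosome 11, 35139171 to 35232402), the receptor for hyaluronan and a carrier of selectin-binding sugars, was 11.98, 12.16 and 11.49 with PMA, against 10.14, 10.82 and 10.83 unstimulated. The groups did not overlap, and PMA replicate 3 and unstimulated replicate 1 were the lowest arrays of their groups. CD44 rose by 1.28 ± 0.23 on the log2 scale (SE, n = 3 each), or 2.43-fold (limma adjusted p = 0.00524). In a gene-wise test without shared variance the call was lost (adjusted p = 0.0690, range over the alternatives 1.14e-05 to 0.0690). The low end of that range came from leaving out PMA replicate 3 and unstimulated replicate 1 together, a choice made after the data were seen. One probe set covers the gene, so splice forms of CD44 were not told apart.

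Genes that make, bind or break down hyaluronan, the ligand of CD44, were also followed. Of 10 measured, 5 rose and 1 fell (13.2% and 13.2% of all genes tested), with a median of 0.28. CEMIP, a hyaluronan-degrading protein, rose most (5.08 ± 0.12, limma adjusted p = 7.29e-07). TNFAIP6, a secreted hyaluronan-binding protein, rose (2.51 ± 0.65, adjusted p = 0.0243), with 6.86, 8.23 and 5.15 on the PMA arrays against 4.32, 4.29 and 4.12 unstimulated. Those unstimulated values were under the lower quartile of each array, which leaves the size of its rise uncertain. CEMIP2, a relative of CEMIP, rose (2.16 ± 0.51, adjusted p = 0.0170). HMMR, an intracellular and surface hyaluronan-binding protein tied to mitosis, fell (−0.87 ± 0.11, adjusted p = 0.00119), and the synthase gene HAS2 overlapped between groups near the lower quartile (4.32 with PMA and 4.38 unstimulated). TNFAIP6 lost its call without PMA replicate 1 or any 1 unstimulated array, and with limma's trend and robust variance settings (adjusted p = 0.0554). CEMIP2 lost its call without unstimulated replicate 2. Both lost it in the gene-wise test, which called 2 of the list higher. The number that rose was 3 when either PMA replicate 1 or unstimulated replicate 2 was left out, and with the trend and robust settings.

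SELPLG (chromosome 12, 108621895 to 108633894) encodes PSGL-1, the mucin on leukocytes that binds selectins. It was 7.32, 7.32 and 7.64 on the PMA arrays, against 9.83, 9.56 and 9.50 on the unstimulated arrays. Every PMA array lay more than 1.5 log2 units below every unstimulated array. The log2 fold change was −2.20 ± 0.13 (SE, n = 3 each), a 4.598-fold fall (95% interval on the log2 scale −2.51 to −1.90, limma adjusted p = 2.81e-05), at percentile 0.63 of all genes ranked by log2 fold change. Its call held in all 17 alternatives, with values from −2.31 to −2.10. Some granulocyte markers moved in the same direction: of 7 measured none rose and 4 fell (ELANE, CSF3R, CXCR2 and MPO). CXCR1, CEACAM8 and LTF did not pass. The summed level of the list was 8.71 to 8.81 with PMA and 12.55 to 12.80 unstimulated. ELANE made up most of the unstimulated sum, with means of 7.44 with PMA and 12.29 unstimulated. The part of these markers in the SELPLG values was not tested.

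Other mucin-like ligands went both ways. Of 9 selectins and mucin-like ligands measured, 2 rose and 2 fell (13.2% and 13.2% of all genes tested). PODXL, which encodes the sialomucin podocalyxin, rose (3.61 ± 0.22, limma adjusted p = 3.34e-05), at 11.18, 10.99 and 10.54 with PMA against 7.74, 7.06 and 7.09 unstimulated. CD164, a sialomucin of haematopoietic precursors, rose by 0.52 ± 0.15 (adjusted p = 0.0388). Its call was lost without any 1 of PMA replicates 1 and 3 and unstimulated replicates 1, 2 and 3. It was also lost with every probe set tested and in the gene-wise test. Each of these settings left 1 gene of the list higher. SPN, which encodes the leukocyte sialomucin CD43, fell (−0.89 ± 0.13, adjusted p = 0.00214). CD24, a small mucin-like P-selectin ligand, fell (−1.20 ± 0.26, adjusted p = 0.0116), with a PMA mean of 3.75 below every array's lower quartile against 4.95 unstimulated, and lost its call in the gene-wise test.

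The enzymes that decorate selectin ligands changed in both directions. Of 19 measured, 7 rose and 3 fell (13.2% and 13.2% of all genes tested), with a median of 0.19. Without PMA replicate 3, 5 fell. In the gene-wise test 4 were higher. TPST1, a sulfotransferase that acts on tyrosines such as those of PSGL-1, rose (2.91 ± 0.30, limma adjusted p = 0.000372). Its values were 9.99, 9.85 and 9.09 with PMA, against 6.16, 6.99 and 7.05 unstimulated. The related TPST2 rose by 0.61 ± 0.15 on the log2 scale (adjusted p = 0.0188), a call lost without PMA replicate 1 or unstimulated replicate 2 and in the gene-wise test.

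Fucosyl- and sialyltransferases build the selectin-binding sugar itself. Of the fucosyltransferases, FUT4 fell (−1.17 ± 0.08, limma adjusted p = 6.19e-05), with 7.95, 8.06 and 8.02 with PMA against 9.19, 9.17 and 9.18 unstimulated. FUT7, the main leukocyte enzyme of this step, was 5.76, 6.03 and 6.90 with PMA and 7.22, 6.94 and 7.03 unstimulated, and did not pass (−0.84 ± 0.27, adjusted p = 0.0537). With all 6 arrays kept, FUT7 passed in limma when the lowest 25% of genes were left out (adjusted p = 0.0467). It also passed with array quality weights (−0.99, adjusted p = 0.00739). Leaving out PMA replicate 3 brought FUT7 past the threshold as well (−1.17, adjusted p = 0.000483, range over the alternatives 6.22e-05 to 0.205). The low end of that range came from leaving out PMA replicate 3 and unstimulated replicate 1 together, a choice made after the data were seen. Among sialyltransferases, ST3GAL3 fell (−2.01 ± 0.12, adjusted p = 2.63e-05) and ST3GAL4 overlapped between groups (−0.02 ± 0.10, adjusted p = 0.920), while ST3GAL6, chosen after its values were seen, rose (0.69 ± 0.14, adjusted p = 0.00948) with a call lost in the gene-wise test. GMDS, the first enzyme of GDP-fucose synthesis, fell (−0.69 ± 0.17, adjusted p = 0.0190), a call lost without PMA replicate 1 or 2 and in the gene-wise test. FUT8, which fucosylates the core of N-glycans and not selectin ligands, rose (1.37 ± 0.12, adjusted p = 0.000159), and so did GALNT2, which starts O-glycans (0.98 ± 0.11, adjusted p = 0.000555). The branching enzyme gene GCNT1 was not analysed here.

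**Figure D3:**
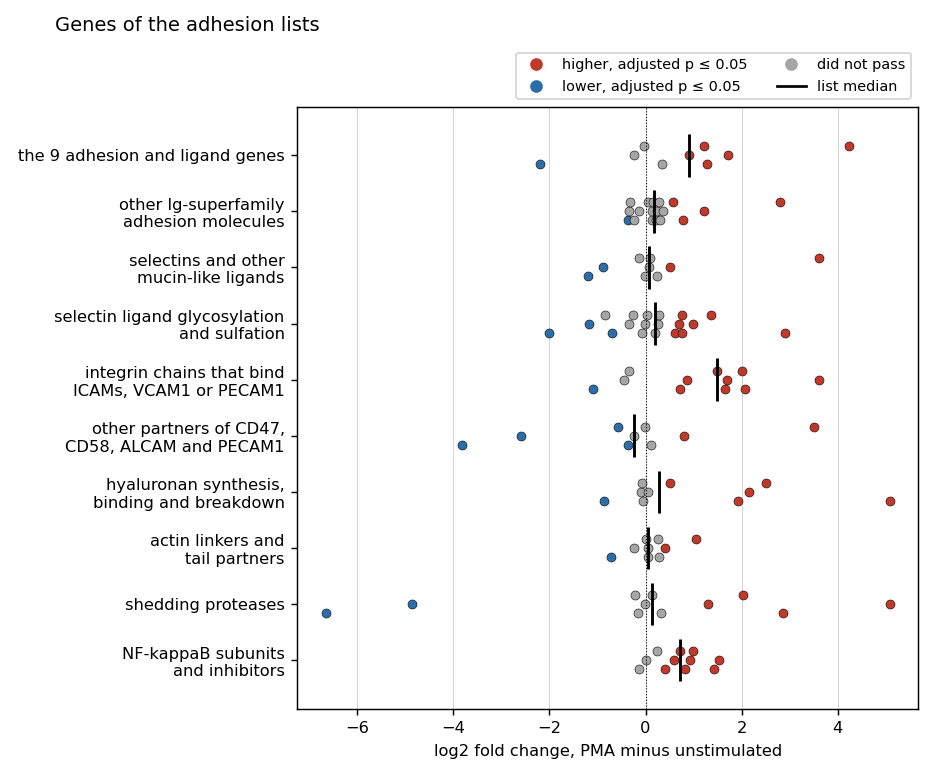
Log2 fold change, PMA minus unstimulated (horizontal axis), of each measured gene in the 9 adhesion and ligand genes and in 9 further lists, coloured by limma's call, with a bar at each list's median. The integrin chains (median 1.48) and NF-kappaB genes (median 0.73) lie mostly to the right of 0, and the glycosylation list spreads to both sides.

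Integrin chains that bind ICAMs, VCAM-1 or PECAM-1 were read as a list. Of 11 measured, 8 rose and 1 fell in limma (13.2% and 13.2% of all genes tested), with a median log2 fold change of 1.48. In the gene-wise test without shared variance 4 were higher and 0 lower. There ITGB2, ITGAL and ITGB3 were among those that lost their calls. For the ICAM-1 receptors, ITGAM, the alpha chain of Mac-1, rose (2.01 ± 0.12, limma adjusted p = 3.17e-05) and the shared beta chain ITGB2 rose (0.72 ± 0.15, adjusted p = 0.00989). ITGAL, the alpha chain of LFA-1, fell (−1.10 ± 0.23, adjusted p = 0.00978), with 9.38, 9.16 and 10.12 with PMA against 10.52, 10.72 and 10.73 unstimulated. For the VCAM-1 receptor VLA-4, the beta chain ITGB1 rose (1.48 ± 0.17, adjusted p = 0.000572) and the alpha chain ITGA4 overlapped between groups (−0.34 ± 0.24, adjusted p = 0.372). ITGB3, whose product pairs with alpha-V, a PECAM-1 partner, rose (3.60 ± 0.58, adjusted p = 0.00309), and so did ITGB7 (2.06 ± 0.16, adjusted p = 8.37e-05). Without PMA replicate 3 the number that fell was 3, ITGA4 among them (−0.65, adjusted p = 0.00281).

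Further immunoglobulin-superfamily adhesion genes were read as a list. Of 18 measured, 4 rose and 1 fell (13.2% and 13.2% of all genes tested), with a median of 0.18. JAM2, a junctional molecule, rose (2.80 ± 0.36, limma adjusted p = 0.00111), as did NCAM1, the neural molecule also known as CD56 (1.22 ± 0.13, adjusted p = 0.000406). Without unstimulated replicate 3, and in the gene-wise test, the number that rose was 2. JAM3 fell by 0.35 on the log2 scale (adjusted p = 0.0457). Its call was lost without PMA replicate 1 or 2 or without any 1 unstimulated array. It was also lost under each of 3 other scalings, with every probe set tested, with a replicate block and in the gene-wise test.

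Of 9 genes for actin linkers and other proteins that bind the tails of these molecules, 2 rose and 1 fell, with a median of 0.05. The shares over all genes tested were 13.2% and 13.2%. The linker MSN, which encodes the moesin that ties ICAMs, CD44 and PSGL-1 to actin, was 12.02 ± 0.13 with PMA and 11.97 ± 0.04 unstimulated (SD, n = 3 each) and did not pass (limma adjusted p = 0.805). CTNNA1, alpha-catenin, rose (1.052 ± 0.12, adjusted p = 0.000657), as did the crosslinker ACTN1 (0.41 ± 0.08, adjusted p = 0.00900). PTPN6, a phosphatase that binds PECAM-1 and SIRP-alpha tails, fell (−0.72 ± 0.20, adjusted p = 0.0304). Its call was lost without any 1 of PMA replicates 1 and 2 and unstimulated replicates 2 and 3. It was also lost under cyclic loess (limma adjusted p = 0.0641) and in the gene-wise test.

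Genes of proteases that cut adhesion molecules went both ways. Of 11 measured, 4 rose and 2 fell (13.2% and 13.2% of all genes tested), with a median of 0.12. ADAM17, a sheddase of ICAM-1, VCAM-1 and ALCAM, rose (1.30 ± 0.16, limma adjusted p = 0.000899), as did its trafficking partner RHBDF2 (2.02 ± 0.12, adjusted p = 2.65e-05). ADAM10, which sheds CD44, did not pass (0.31 ± 0.14, adjusted p = 0.155). MMP14, a membrane protease that cuts CD44, rose (2.87 ± 0.16, adjusted p = 2.31e-05), and so did the gelatinase MMP9 (5.09 ± 0.34, adjusted p = 4.37e-05). The granule proteases that fell were CTSG (−6.65 ± 0.12, adjusted p = 5.48e-07) and ELANE (−4.85 ± 0.12, adjusted p = 7.29e-07).

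Of 11 NF-kappaB subunits and inhibitors, 8 rose and none fell (13.2% and 13.2% of all genes tested), with a median of 0.73. The subunit genes NFKB1 (0.83 ± 0.11, limma adjusted p = 0.00111), NFKB2 (0.99 ± 0.15, adjusted p = 0.00223) and RELB (0.73 ± 0.13, adjusted p = 0.00500) rose, while RELA, the main transactivating subunit, was 8.57 in both groups (adjusted p = 0.973). Among feedback inhibitors, NFKBIE (1.53 ± 0.14, adjusted p = 0.000180), TNFAIP3 (1.42 ± 0.28, adjusted p = 0.00809) and NFKBIA (0.92 ± 0.21, adjusted p = 0.0147) rose. TNFAIP3 and NFKBIA lost their calls in the gene-wise test, which called 5 of the list higher. TNFAIP3 was 7.75 on unstimulated replicate 1, against 8.78 and 8.88 on the other unstimulated arrays.

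The 9 genes also varied within groups. PMA replicate 3 was the highest or the lowest PMA array for all 9 genes, and for 74.9% of all genes tested. Unstimulated replicate 1 was the highest or lowest of its group for 8 of the 9, and for 75.1% of all genes. On PMA replicate 3, ICAM1, CD44 and ALCAM lay 0.64, 0.58 and 0.47 below the mean of the other PMA arrays, while CD58 lay 0.61 above it. On unstimulated replicate 1, ICAM1 and CD44 lay 0.95 and 0.68 below the mean of the other unstimulated arrays. With both arrays left out, a choice made after the data were seen, 5 of the 9 were higher and 1 lower. The largest shift of any of the 9 log2 fold changes over 17 alternatives was 0.33, that of CD58 without both arrays.

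**Figure D4:**
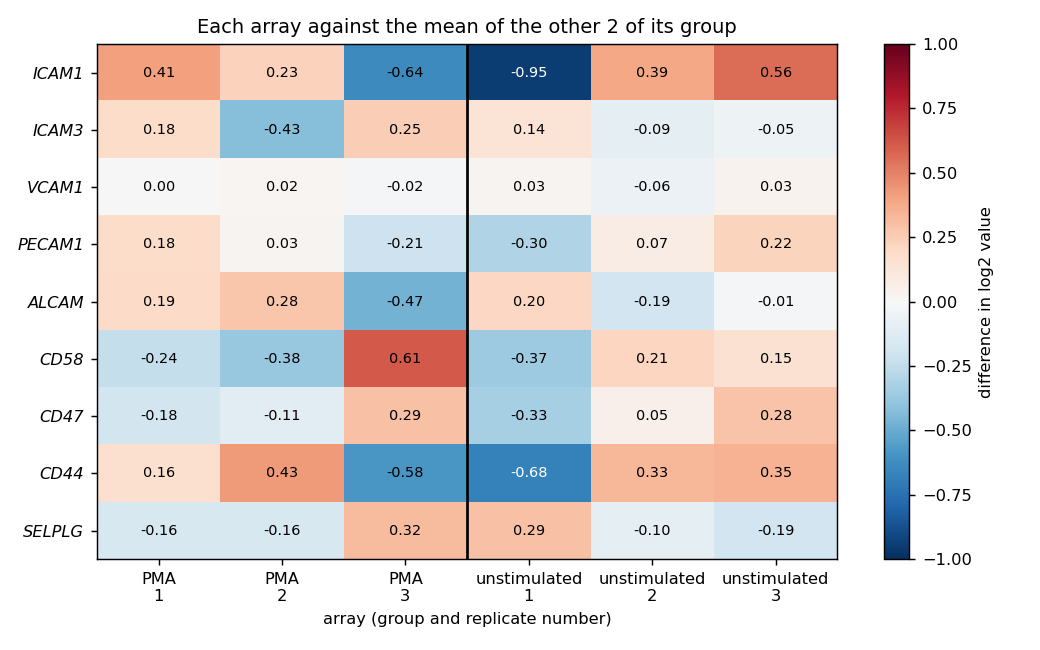
Difference in log2 value between each array (columns) and the mean of the other 2 arrays of its group, for the 9 genes (rows). PMA 3 and unstimulated 1 hold the deepest colours, from −0.95 for ICAM1 on unstimulated 1 to 0.61 for CD58 on PMA 3.

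Genes whose profiles over the 6 arrays lay nearest to that of ICAM1 and of SELPLG were looked up as a description, with each gene centred on its own mean and likeness given as the root mean square distance in log2 units. Nearest to ICAM1 were C5AR2, a receptor for the complement fragment C5a (distance 0.0879), GEM, a small GTP-binding protein (0.10), and PHLDA1 (0.171). Nearest to SELPLG were STING1, the adaptor of cytosolic DNA sensing (0.127), CAT, the peroxide-degrading enzyme catalase (0.137), and ADGRA2, an adhesion G protein-coupled receptor (0.138).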

How the data were processed

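Total RNA of THP-1 cells was hybridised to 6 single-channel Affymetrix arrays, 3 per group. The authors deposited log2 values. RMA and Partek are named in the submitters' processing notes, with versions and genome build not given in the sources used here. Array distributions were close but not equal: medians were 6.10 to 6.17 with PMA and 6.20 to 6.25 unstimulated, every PMA array lower. Of 33297 probe sets, 19460 carried a single symbol in the platform annotation (19429 matched to the GRCh38.p14 gene table). The brightest stood for each of 18417 genes. Groups came from the sample titles. Groups were tested in R 4.3.3 by limma 3.58.1 (lmFit, eBayes, group as the sole term, Benjamini-Hochberg over all genes, threshold 0.05). An exact permutation test of 3 against 3 cannot go below 0.1, so none is given. Precision is limited by the number of arrays. The limma step alone was tested on simulated data. Alternatives covered normalization, dim genes, probe set choice, variance model, a replicate block and each array left out. Leaving out 2 arrays together was added after seeing the data. Figures used matplotlib 3.10.9.

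The 9 genes, the 9 further lists and the motifs were chosen with earlier results of these data known. Named from each list are the 3 largest rises and 3 largest falls past the threshold and 29 genes set by name whatever their values; the nearest profiles are also named. ROBO4, TIE1, CDH5, VWF and TEK (endothelial marker list), PDGFRA and PDGFRB (fibroblast list) and ST3GAL6 are named after their values were seen. So are CSF3R, CXCR2, MPO, CXCR1, CEACAM8 and LTF (granulocyte list).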

Additional observations from a re-analysis of the deposited data

How the results depend on the processing

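Of the 9 genes, ICAM1, ICAM3, ALCAM, SELPLG, CD58 and CD47 kept their direction and their side of the threshold in all 17 alternatives. VCAM1 turned sign with quantile normalization repeated (0.030), arrays centred on medians (0.053) and cyclic loess (0.022), and was not tested when the lowest 25% of genes were left out. PECAM1 passed with arrays centred on medians (0.43), cyclic loess (0.43) and array quality weights (0.32), and over single arrays left out it ran from 0.25 to 0.42. CD44 kept 1.28 in the gene-wise test without shared variance and lost its call. That test called 1385 genes higher, 1458 lower and 26 of the further list genes higher, against 2431, 2423 and 42 in limma. With all 33297 probe sets tested, named or not, 3854 probe sets were lower. That number counts probe sets and not genes, so it cannot be set against 2423. With single arrays left out, the number of lower genes ran from 1597 (without PMA replicate 1) to 2449. The cause of these shifts was not tested. Of 38 list genes named by size of change, 12 lost a call in some alternative, all 12 of them in the gene-wise test. Of 10 further genes named as risen, fibroblast markers not counted, 5 (ITGB2, TPST2, NFKBIA, TIE1 and ST3GAL6) lost theirs in that test. PDGFRA, PDGFRB, CSF3R, CXCR2 and MPO were not followed over the alternatives.

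Whether the replicate numbers pair the arrays could not be settled with 3 arrays per group. Deviations of same-numbered arrays from their group means correlated at 0.177, −0.022 and 0.046. Those of arrays with unlike numbers correlated at −0.154 to 0.112. With a replicate block PECAM1 had an adjusted p of 0.126, ICAM1 0.000431 and SELPLG 0.000327, and no call among the 9 genes changed; 2409 genes were higher and 2317 lower. With 3 arrays per group, small changes such as that of ICAM3 cannot be separated from the spread, and values near the lower quartile, as for VCAM1, are limited by background.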
